A study of Mus musculus with 4 samples.

Results

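The population described here was 316 naive-like and CD8 T cells of the mouse liver, out of 15020 barcodes kept from 15383 in 4 single-cell libraries. A barcode entered the set with at least 1 UMI (a counted transcript molecule) of Cd3d, Cd3e or Cd3g, the invariant chains of the T cell receptor complex, and at least 1 UMI of Lef1, Dapl1 or Cd8b1. It left the set with any UMI of Cxcr6, Ncr1, Cd79a or Siglech, with 3 or more detected genes of a 7-gene cell cycle list, or with 2 or more of 6 Kupffer cell genes. The members were thus selected on measured UMIs of these genes, so the levels of those genes are a description and support nothing. Exercise replicates 1 and 2 supplied 54 and 52 of the 316 cells, and sedentary replicates 1 and 2 supplied 118 and 92. Pairs of values below follow that order of replicates.

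The study collected CD45+ leukocytes from the livers of adult wild-type C57BL/6 mice and profiled them with 10x Genomics 3′ v3 chemistry. Exercise mice ran on a motorized treadmill at 12.5 m/min for 60 min per day, 5 days per week, over 4 weeks. Sedentary mice spent the same time on a treadmill that did not move. Serum alanine aminotransferase, a marker of liver injury, was 26 and 59 U/L for exercise replicates 1 and 2 and 33 and 56 U/L for sedentary replicates 1 and 2. Livers were digested with collagenase, and leukocytes were enriched with CD45 magnetic beads according to the extraction notes, while the design text names a sort and nuclei libraries. The labels do not say whether a library came from 1 animal or from pooled animals, so p-values here measure only the spread between these libraries.

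Naive T cells circulate between blood and lymphoid organs until they meet antigen. Their homing uses the chemokine receptor Ccr7, their exit from tissue uses the sphingosine receptor S1pr1, and the transcription factors Klf2, Lef1 and Tcf7 hold that program in place. Il7r, the interleukin-7 receptor chain, carries their survival signal. Memory and effector T cells instead carry the chemokine Ccl5 and granule genes such as Nkg7, and the liver also houses resident and natural killer T cells that carry Cxcr6.

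The kept barcodes numbered 2917 and 4221 for exercise and 4026 and 3856 for sedentary mice. Members supplied 177898 and 177063 UMIs from exercise and 331551 and 259928 from sedentary mice. Their median depth was 3247.5 and 3240.5 UMIs per cell in exercise against 2523.5 and 2586 in sedentary libraries, so the exercise cells were read more deeply. The libraries shared 125 cell barcodes pairwise, 11 of them barcodes of members. A simulated-doublet score marked 460 kept barcodes and 2 members.

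Lef1 was detected in 235 members, Cd8b1 in 161 and Dapl1, a gene of naive and resting T cells, in 110. Lef1 alone admitted 111 cells, Cd8b1 alone 52 and Dapl1 alone 11, and 142 cells carried at least 2 of these genes. T cell genes outside the rule were present, and their levels were not set beside cells that lack them. Lck, the proximal kinase of the T cell receptor, stood at 493 ± 74.4 CPM (CPM scales a gene's UMIs by all UMIs summed over the population in that library; mean and SD, n = 4 libraries). Lat, its adaptor, stood at 401 ± 40.5 CPM and Cd247, the zeta chain, at 166 ± 21.5 CPM. Of the B cell markers, Cd79a (excluded by the rule) and Pax5 were at 0, and Ms4a1 had 1 UMI over all members. All 8 B cell markers together had 16 and 1 UMIs in exercise and 16 and 9 in sedentary members. Of 9 markers of NK cells and innate lymphoid cells, Ncr1 (excluded by the rule) and Klra4 were at 0. Tyrobp, of the same list, reached 219 and 164 CPM in exercise and 329 and 335 CPM in sedentary members. Mixed barcodes, described below, held 15 of its 39 and 0 of its 29 UMIs in exercise. In sedentary members they held 54 of 109 and 31 of 87. Klre1 reached 33.7 and 102 CPM against 39.2 and 61.6 CPM.

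The edge of the rule was soft. A single UMI of Lef1, Dapl1 or Cd8b1 was all that admitted 97 members (30.7%), and 106 further cells carried those genes but were left out by a single Cxcr6 UMI. The members admitted by a single UMI were 35.2% and 40.4% of exercise members and 22.9% and 32.6% of sedentary members. Klf2 stood at 655 ± 159 CPM in the 97 cells just inside and at 345 ± 220 CPM in the 106 cells just outside. Ccr7 stood at 149 ± 33.2 CPM just inside and 56.4 ± 45.7 CPM just outside. Nkg7 stood at 1330 ± 474 CPM just inside and 1917 ± 291 CPM just outside. The Cxcr6 exclusion as a whole left out 330 Cd3-detected cells with Lef1, Dapl1 or Cd8b1.

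Homing and quiescence genes outside the rule were high in the members. Klf2 reached 905 and 1017 CPM in exercise and 1348 and 1343 CPM in sedentary libraries. Its mean of 1153 ± 227 CPM (n = 4) stood beside 106 ± 39.6 CPM in 1260 Cxcr6-positive T cells that passed the other exclusions, and 392 ± 103 CPM in 365 other Cd3-detected cells that lacked both Cxcr6 and the entry genes. Ccr7 reached 230 and 164 CPM in exercise and 371 and 281 CPM in sedentary libraries, against 14.0 ± 14.0 CPM in the Cxcr6-positive cells. All 4 member values of both genes lay above all 4 values of each comparison population. These differences carry no test, because the populations were separated by genes tied to this program.

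Il7r reached 169 and 277 CPM in exercise and 344 and 300 CPM in sedentary libraries, and its mean was 109 ± 40.3 CPM in the Cxcr6-positive T cells. Tcf7, the transcription factor TCF1, reached 163 and 232 CPM in exercise and 229 and 208 CPM in sedentary libraries, against 38.6 ± 4.55 CPM. S1pr1 averaged 132 ± 36.5 CPM in members and 7.24 ± 4.28 CPM in Cxcr6-positive cells, and Igfbp4, a gene of naive T cells, 218 ± 17.5 and 14.6 ± 9.98 CPM. Satb1, a chromatin organizer of thymic and peripheral T cells, did not follow them: it averaged 292 ± 51.5 CPM in members and 329 ± 25.6 CPM in Cxcr6-positive cells, with overlapping values.

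The share of cells with a transcript gave the same order when every cell was thinned to 1000 UMIs. Ccr7 was seen in 23.7% of thinned members, in 0.637% of Cxcr6-positive T cells and in 0.678% of 6695 Kupffer-like cells, which should lack it. Tcf7 was seen in 17.7% of members and in 0.075% of Kupffer-like cells, and Il7r in 25.9% and 0.317%. Before thinning, median depth was 2697 UMIs in members, 2687 in Cxcr6-positive cells and 2545 in Kupffer-like cells. B cells also carried Ccr7 (25.8% of thinned cells). The B cell marker list summed to 89.9 and 5.65 CPM in exercise members and 48.3 and 34.6 CPM in sedentary members, and to between 32.2 and 78.7 CPM in Cxcr6-positive T cells. Its part in the Ccr7 level was not tested.

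**Figure D1:**
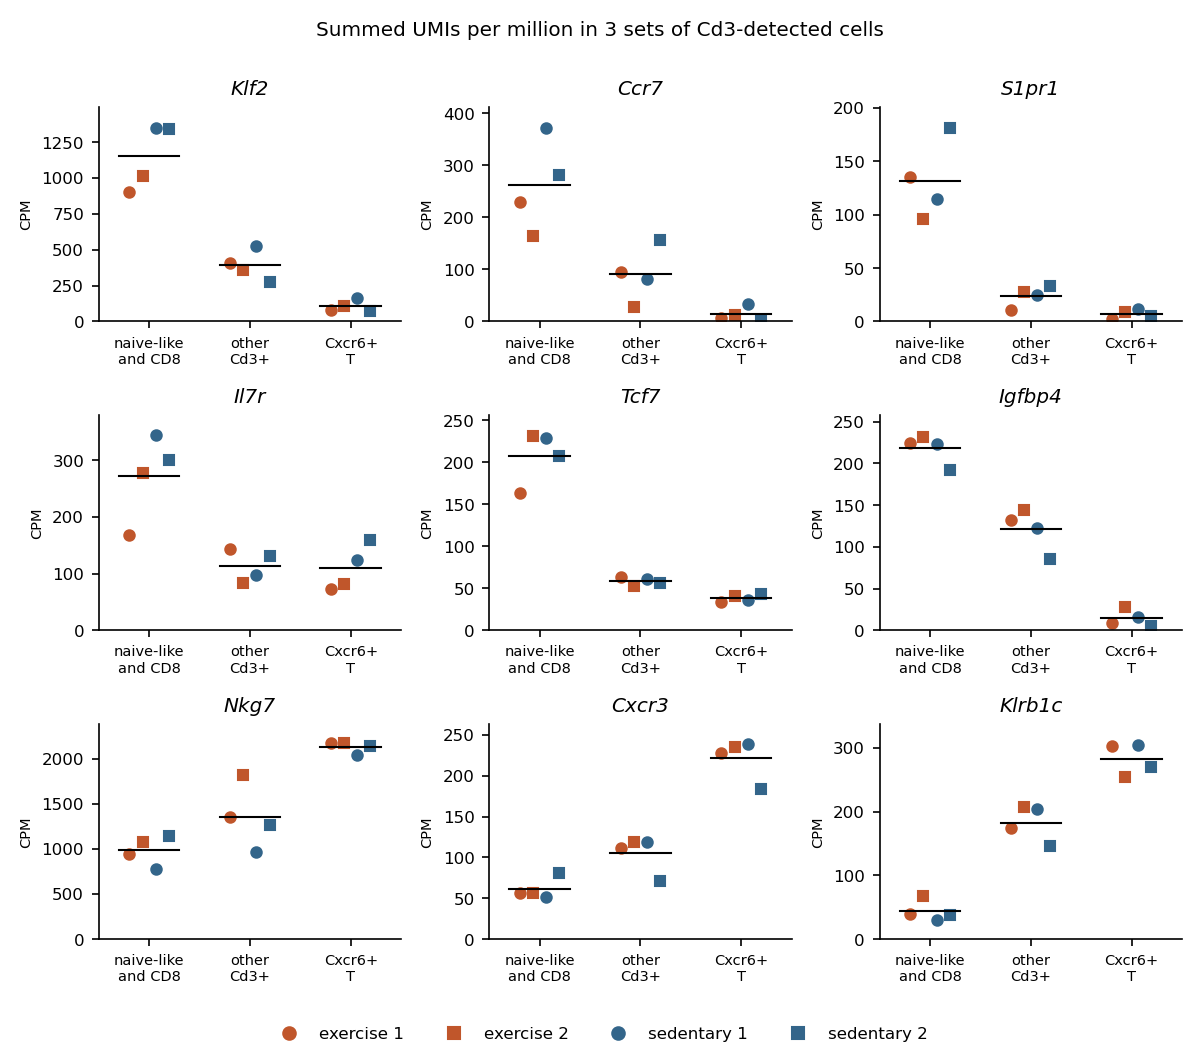
Levels of homing, quiescence and effector genes in CPM, 1 point per library, for the naive-like and CD8 T cells, the other Cd3-detected cells and the Cxcr6-positive T cells. Black lines are means. All 4 member values of Klf2 and Ccr7 lie above those of the other cells, and all 4 of Cxcr3 lie below those of the Cxcr6-positive cells.

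Effector and resident genes ran the other way, with the exception of Ccl5. Nkg7 averaged 986 ± 163 CPM in members and 2132 ± 66.6 CPM in Cxcr6-positive T cells. Il2rb, the shared interleukin-2 and interleukin-15 receptor chain, averaged 182 ± 57.2 and 620 ± 54.4 CPM. Klrb1c, the NK1.1 antigen, averaged 43.9 ± 16.4 and 282 ± 24.9 CPM, and Cxcr3, a receptor for interferon-induced chemokines, 61.2 ± 13.3 and 221 ± 25.4 CPM. Zbtb16, the natural killer T cell factor PLZF, had 8 UMIs in all members (8.63 ± 7.28 CPM) and stood at 47.9 ± 6.51 CPM in Cxcr6-positive cells. Ccl5 reached 3924 and 4705 CPM in exercise members and 3803 and 5755 CPM in sedentary members, and averaged 5043 ± 674 CPM in Cxcr6-positive cells, so the values overlapped.

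A Ccl5 UMI was seen in 147 of 316 members. Thinned to 1000 UMIs, 34.8% of members had one, against 78.6% of Cxcr6-positive T cells and 8.44% of Kupffer-like cells. Among members with a Ccr7 UMI, 39 of 139 (28.1%) had a Ccl5 UMI, and among those without Ccr7 108 of 177 (61.0%) did. For Dapl1 the shares were 33 of 110 with it and 114 of 206 (55.3%) without it. For Cd8b1 they were 75 of 161 (46.6%) and 72 of 155 (46.5%), close to each other. These counts pool the cells of 4 libraries at their own depths and carry no test.

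The members were divided by coreceptor. CD8-detected members, with a UMI of Cd8a or Cd8b1 and none of Cd4, numbered 168. CD4-detected members, with Cd4 and neither CD8 gene, numbered 31, 2 cells carried both, and 115 carried neither. The rule admits a CD8 cell by Cd8b1 alone but has no such entry for CD4, so these numbers are not a ratio of CD8 to CD4 cells in the liver. Of the CD8-detected members, 117 also carried Lef1 or Dapl1 and 51 carried neither.

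Ccl5 marked off the 51 CD8-detected members without Lef1 or Dapl1, which numbered 9 and 6 in exercise and 22 and 14 in sedentary libraries. In them it reached 16913 and 12405 CPM in exercise and 16368 and 18641 CPM in sedentary libraries. In the 117 CD8-detected members with Lef1 or Dapl1 it reached 631 and 2285 CPM in exercise and 746 and 2398 CPM in sedentary libraries, and the 2 sets of values did not overlap. In the CD4-detected members it averaged 657 ± 349 CPM and in members with neither coreceptor 3392 ± 2220 CPM. The shares of thinned cells with Ccl5 were 68.6%, 23.1%, 22.6% and 34.8% in the same order.

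Other genes of activated or memory T cells followed Ccl5 in these 51 cells. S100a6, a calcium-binding protein, averaged 919 ± 276 CPM there and 132 ± 96.5 CPM in the CD8-detected members with Lef1 or Dapl1. Lgals1, galectin-1, averaged 997 ± 290 and 254 ± 68.5 CPM, and Nkg7 1709 ± 262 and 818 ± 100 CPM. Gzmk, granzyme K, had 14 of its 17 member UMIs in these 51 cells. Igfbp4 averaged 38.1 ± 39.6 CPM there and 242 ± 56.4 CPM with Lef1 or Dapl1, and Ccr7 139 ± 42.7 and 306 ± 114 CPM. Il7r did not separate the sets, at 277 ± 143 and 339 ± 52.1 CPM. Lef1 and Dapl1 defined both sets, so these values are a description, and S100a6, Lgals1 and Igfbp4 were singled out after their values were seen.

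**Figure D2:**
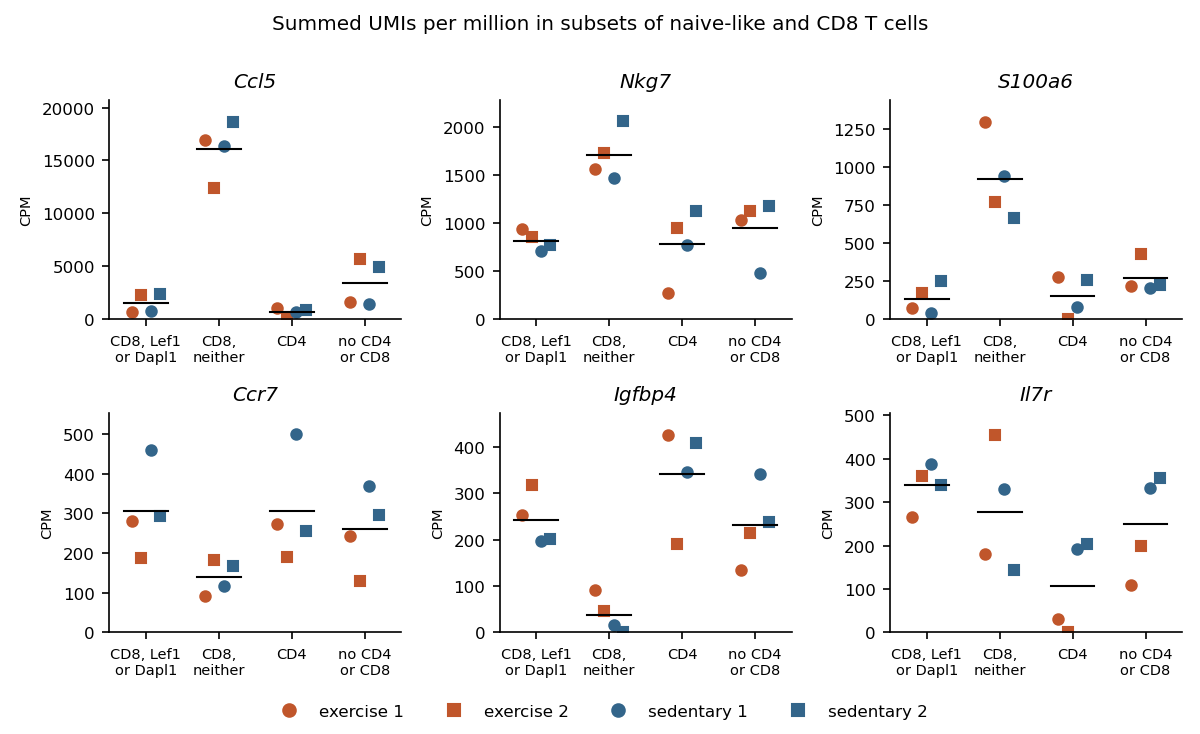
Levels in CPM of selected genes in 4 subsets of the population, 1 point per library: CD8-detected with Lef1 or Dapl1, CD8-detected without them, CD4-detected, and neither coreceptor. Black lines are means. Ccl5 lies between 12405 and 18641 in the CD8-detected cells without Lef1 or Dapl1 and between 631 and 2398 in those with them.

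Foxp3, the defining factor of regulatory T cells, had 4 UMIs in 3 of the 316 members. Of 20 genes listed for helper and regulatory T cells, 4 had enough counts to be tested for exercise. Among these, Ikzf2 had 28 UMIs in exercise and 24 in sedentary members, Izumo1r 31 and 40, and Tnfrsf18 21 and 40. The remaining tested gene of that list, Cd5l (31 and 67 UMIs), is also a Kupffer gene by which the rule left cells out. The share of regulatory T cells among members was not estimated. Cd40lg, the helper ligand CD154, had 24 UMIs, and Zbtb7b, the CD4 lineage factor ThPOK, had 23. The CD4-detected and CD8-detected members with Lef1 or Dapl1 were compared within libraries, since both sides entered by the same genes. Of 505 genes tested, edgeR's quasi-likelihood test with the library as a block called 0 (0.0%) at a Benjamini-Hochberg adjusted p of 0.05, 48 had an unadjusted p under 0.05, and DESeq2 called 1. The CD4 side held 5 to 11 cells per library. The gene that DESeq2 called was Ly6c1, which edgeR called as well, and alone, without exercise replicate 1. Calls numbered 3 without sedentary replicate 2.

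Ly6c2, a surface antigen of the Ly6 family, stood at 505, 839, 461 and 284 CPM in the CD8-detected cells of exercise replicates 1 and 2 and sedentary replicates 1 and 2. In the CD4-detected cells of the same libraries it stood at 91.2, 0, 270 and 0 CPM. CD8-detected cells were higher in 4 of 4 libraries, with a log2 difference of 2.28 (SE 0.57), and edgeR's adjusted p was 0.215. Its near-identical neighbour Ly6c1 averaged 22.2 ± 33.6 CPM in the CD8-detected and 318 ± 134 CPM in the CD4-detected cells. Reads of such a gene pair can be assigned to the wrong copy. Il7r stood at 339 ± 52.1 CPM on the CD8 side and 107 ± 107 CPM on the CD4 side (log2 difference 1.62, SE 0.49, edgeR adjusted p = 0.246). Gimap6, a GTPase of lymphocyte survival, was lower on the CD8 side in 4 of 4 libraries, at 254 ± 66.4 against 578 ± 153 CPM (log2 difference -1.19, SE 0.27, edgeR adjusted p = 0.194). In edgeR on all 4 libraries none of these differences passed the test. Without the filter on low counts edgeR called Ly6c2, Ly6c1 and Il7r among 100 genes, and Ly6c2 also passed when cells with hepatocyte or hemoglobin UMIs were left out (adjusted p = 0.0136). With the mixed barcodes described below left out, an alternative chosen after seeing the data, edgeR called 8 genes, among them Ly6c2 (adjusted p = 0.0102) and Il7r (adjusted p = 0.0456). Ly6c2, Ly6c1 and Gimap6 were picked after their values were seen.

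Members made up a smaller share of the kept cells in both exercise libraries. The shares were 1.85% (exact binomial 95% interval 1.39 to 2.41) and 1.23% (0.921 to 1.61) in exercise, and 2.93% (2.43 to 3.50) and 2.39% (1.93 to 2.92) in sedentary libraries. The intervals cover counting error only. The means were 1.54% ± 0.438 and 2.66% ± 0.385 (SD, n = 2 each), a difference of -1.12 percentage points. An exact two-sided permutation test gave p = 0.333, which is the smallest p that 2 against 2 libraries allow. When every cell was thinned to 1000 UMIs before the rule was applied, the shares were 2.16% and 1.59% against 3.04% and 1.97%, and the groups overlapped.

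The same held among Cd3-detected cells. Members were 6.80% and 4.99% of them in exercise and 12.2% and 9.06% in sedentary libraries, a difference of -4.75 percentage points (exact two-sided permutation p = 0.333, n = 2 each). After thinning the shares were 9.66% and 8.15% against 15.1% and 9.13%, and exercise replicate 1 lay above sedentary replicate 2. The Kupffer gene exclusion took 317 of 794 and 482 of 1043 Cd3-detected cells in exercise and 264 of 966 and 364 of 1015 in sedentary libraries, so it bore harder on exercise. Without that exclusion, an alternative chosen after seeing the data, members were 10.3% and 8.44% against 14.8% and 12.8% of Cd3-detected cells, still without overlap. Of all 3818 Cd3-detected cells, 1877 failed the exclusions other than that of Cxcr6. Among those that passed, in a further unplanned alternative, members were 13.4% and 10.9% against 21.9% and 17.6%. After thinning these shares were 12.0% and 9.96% against 19.6% and 11.7%, and the groups overlapped. CD8-detected cells were 53.7% and 44.2% of members in exercise and 55.9% and 54.3% in sedentary libraries, a difference of -6.17 percentage points (exact two-sided permutation p = 0.333, n = 2 each). The difference was -1.44 points without exercise replicate 2 and -10.9 without exercise replicate 1. After thinning the shares were 46.0% and 29.9% in exercise and 44.9% and 52.6% in sedentary libraries, and the groups overlapped.

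**Figure D3:**
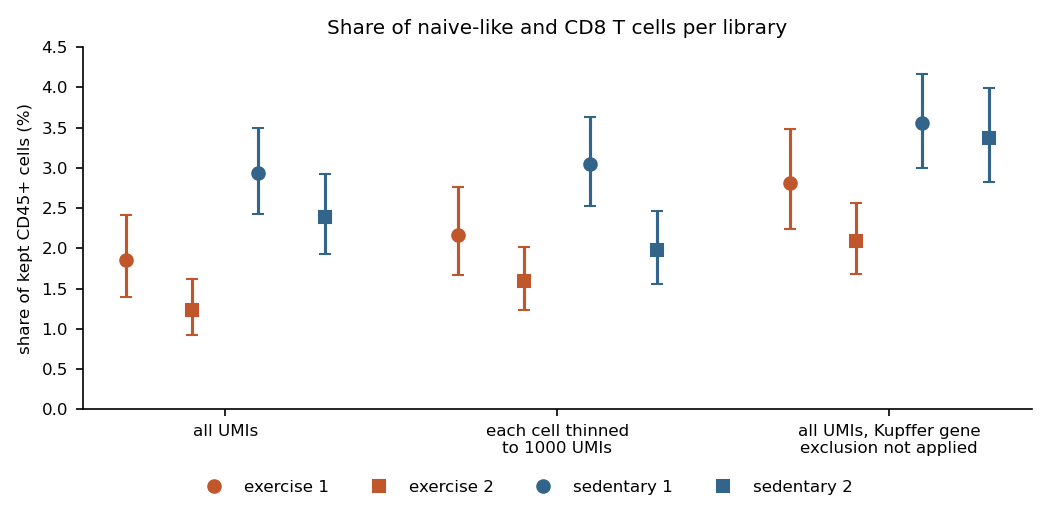
Shares in percent of the naive-like and CD8 T cells per library with exact binomial 95% intervals, among kept cells as counted, after every cell was thinned to 1000 UMIs, and without the Kupffer gene exclusion. Both exercise libraries lie below both sedentary libraries as counted, and exercise replicate 1 lies above sedentary replicate 2 after thinning.

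Exercise was compared with sedentary in the members' summed UMIs. Of 2383 genes tested, edgeR's quasi-likelihood test called 1 lower (0.042%) and 0 higher (0.0%) at a Benjamini-Hochberg adjusted p of 0.05. An unadjusted p under 0.05 was reached by 84 genes with lower and 51 with higher values. DESeq2, run without the filter on low counts and so on 11649 genes, called 0. The median log2 difference of all genes tested was -0.0066, with 1171 positive and 1212 negative differences. Leaving out 1 library at a time gave 20 calls without exercise replicate 1, 23 without exercise replicate 2, 9 without sedentary replicate 1 and 17 without sedentary replicate 2.

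The gene that fell was Gm8369 (ENSMUSG00000058470), a protein-coding gene on chromosome 19 (GRCm38, 11485938 to 11512577, plus strand) that lies between Ms4a6c and Ms4a6b in the Ms4a cluster of membrane-spanning proteins. Exercise members carried 31 and 22 of its UMIs and sedentary members 151 and 118, which is 174 and 124 CPM against 455 and 454 CPM. Both exercise libraries lay far below both sedentary libraries. The log2 difference was -1.67 (SE 0.24, edgeR adjusted p = 0.00644). A Gm8369 UMI was seen in 19 of 54 and 15 of 52 exercise members and in 72 of 118 and 62 of 92 sedentary members, so the fall was spread over many cells although the exercise cells were deeper. The call was lost in DESeq2 (adjusted p = 0.179) and when at least 2 Cd3 genes were asked of each cell (edgeR adjusted p = 0.0812), and the adjusted p ranged from 4.29e-08 to 0.179 over all alternatives.

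The neighbours of Gm8369 that T cells carry moved less. Ms4a4b, a T cell surface protein, reached 866 and 836 CPM in exercise and 1065 and 1081 CPM in sedentary members (log2 difference -0.40, edgeR adjusted p = 0.870). Ms4a6b reached 523 and 429 CPM in exercise and 534 and 504 CPM in sedentary members (log2 difference -0.19, edgeR adjusted p = 0.997). Whether reads were shared between related Ms4a genes was not tested.

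In Cxcr6-positive T cells Gm8369 was lower to begin with, at 72.4 and 79.4 CPM in exercise and 98.1 and 120 CPM in sedentary libraries. The difference of the exercise difference between the populations was -1.14 (log2, SE 0.29), with an edgeR adjusted p of 0.180, so in the fit on all members the fall was not shown to differ from the difference in Cxcr6-positive cells. With at least 2 Cd3 genes asked of each cell the difference passed (-1.19, edgeR adjusted p = 0.0494), while Gm8369 within members then missed the threshold, as given above.

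Txnip, a thioredoxin-binding brake on glucose uptake, reached 157 and 198 CPM in exercise and 338 and 546 CPM in sedentary members. The groups did not overlap, and the log2 difference was -1.36 (SE 0.27, edgeR adjusted p = 0.0659). Junb, an AP-1 subunit, reached 298 and 367 CPM in exercise and 633 and 692 CPM in sedentary members, again without overlap (log2 difference -1.05, SE 0.22, edgeR adjusted p = 0.0878). Zfp36l2, an RNA-binding protein of lymphocyte quiescence, reached 337 and 294 CPM in exercise and 480 and 816 CPM in sedentary members (log2 difference -1.09, SE 0.26, edgeR adjusted p = 0.217). It was named after its values were seen. None of these passed the test on all members.

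A few barcodes carried transcripts of other cell types in bulk. Members with 10 or more UMIs of Cd74, Lyz2, C1qb, S100a8 or Dnase1l3 numbered 13, 2 and 1 from exercise and 6 and 4 from sedentary mice. Cd74, the MHC class II invariant chain of antigen-presenting cells, had 1625 of its 1866 member UMIs in 11 of them. The doublet score marked 2 of the 13. Without them, an alternative chosen after seeing the data, edgeR called 4 genes lower in exercise: Gm8369 (log2 difference -1.74, adjusted p = 0.000386), Txnip (-1.38, adjusted p = 0.0115), Junb (-1.05, adjusted p = 0.0189) and Zfp36l2 (-1.15, adjusted p = 0.0189).

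**Figure D4:**
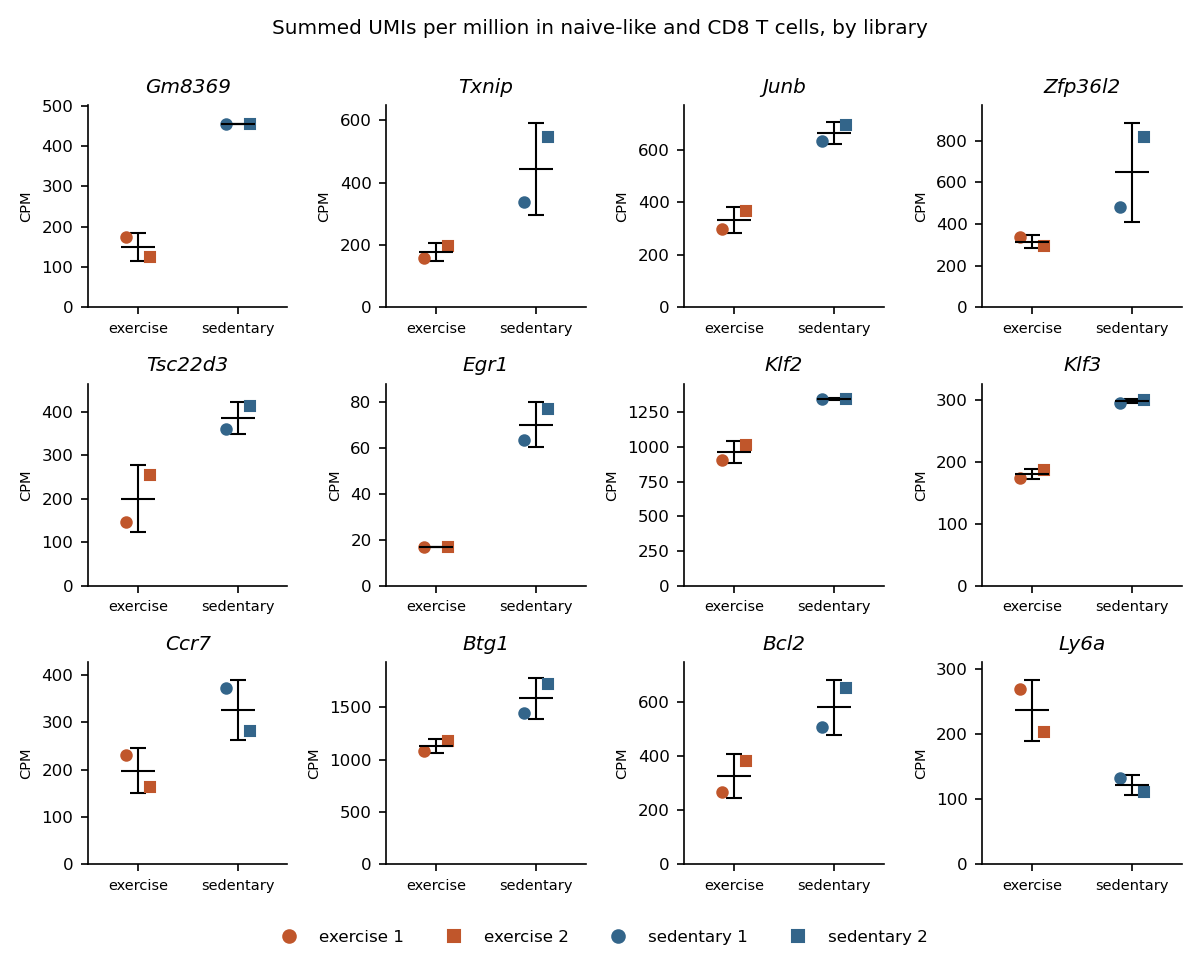
Levels in CPM of genes named in the exercise comparison, 1 point per library of the naive-like and CD8 T cells, with mean and SD (n = 2 per group). Gm8369 lies at 124 and 174 in exercise and near 455 in both sedentary libraries, and the points of Txnip and Junb do not overlap between groups.

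The glucocorticoid-induced list, genes that stress hormones raise in T cells, lay low as a group. Of its 16 genes 6 were tested, and all 6 were lower in both exercise libraries than in both sedentary libraries, where 12.3% of all tested genes were separated that way. The 6 include Txnip, given above, and Il7r, which also counts among the cytokine receptors below, so these results are not separate. Their median log2 difference was -0.88, 5 had an unadjusted p under 0.05, and 0 passed the edgeR test on all members. Tsc22d3, the glucocorticoid-induced leucine zipper GILZ, reached 146 and 254 CPM in exercise and 359 and 412 CPM in sedentary members (log2 difference -0.999, edgeR adjusted p = 0.334). Pik3ip1, an inhibitor of PI3 kinase in resting T cells, reached 67.5 and 107 CPM against 139 and 208 CPM (log2 difference -1.02, edgeR adjusted p = 0.536). The list's median was -1.30 without exercise replicate 2 and -0.44 without exercise replicate 1, with the other libraries left out in between. In Cxcr6-positive T cells the whole list also summed lower in exercise, at 677 and 864 CPM against 1047 and 1562 CPM. The difference of the exercise difference between members and those cells had a median of -0.22 over 14 genes, 6 positive and 8 negative.

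Immediate early genes, which also respond to tissue digestion, had negative differences in 13 of 14 tested genes (median -0.56). The 14 include Junb, given above, so these results are not separate. The median was -0.96 without sedentary replicate 1 and -0.30 without sedentary replicate 2, where 10 of 14 were negative. Of the 14, Ier5 included, 7 had an unadjusted p under 0.05 and 0 passed the edgeR test. Egr1 reached 16.9 CPM in both exercise libraries and 63.3 and 76.9 CPM in the sedentary ones, from 3, 3, 21 and 20 UMIs (log2 difference -2.07, edgeR adjusted p = 0.334). Fos reached 45.0 and 56.5 CPM against 109 and 131 CPM (log2 difference -1.28, edgeR adjusted p = 0.353). Klf6 reached 56.2 and 119 CPM against 202 and 173 CPM (log2 difference -1.17, edgeR adjusted p = 0.334). Ier5 was the one gene of the list with a positive difference (0.63, edgeR adjusted p = 0.856). In Cxcr6-positive T cells the whole list summed to 2974 and 3203 CPM in exercise and 4083 and 5521 CPM in sedentary libraries, also without overlap. The difference of the exercise difference between members and those cells had a median of 0.13 over 18 genes, 11 positive and 7 negative. The part of dissociation in these values was not tested.

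The naive and quiescence list had 28 of 31 genes tested, of which 20 had negative and 8 positive differences (median -0.25, and -0.39 without exercise replicate 2). The 28 include Lef1 and Dapl1, by which members were chosen. Members admitted by a single UMI made up more of both exercise libraries than of both sedentary ones, and their part here was not tested. Both exercise libraries lay below both sedentary libraries for 12 of the 28 and above them for 1, against 12.3% and 21.5% of all genes tested. Of the 28, 7 had an unadjusted p under 0.05 and 0 passed the edgeR test. Klf3, a repressor related to Klf2, reached 174 and 186 CPM in exercise and 296 and 300 CPM in sedentary members (log2 difference -0.78, edgeR adjusted p = 0.401). Ccr7 and Klf2, whose values are given above, had log2 differences of -0.80 (edgeR adjusted p = 0.521) and -0.55 (adjusted p = 0.695). Btg1, an antiproliferative factor, reached 1085 and 1180 CPM against 1448 and 1727 CPM (log2 difference -0.55, edgeR adjusted p = 0.626). Tcf7 (log2 difference -0.21) overlapped between the groups and changed sign without exercise replicate 1 (0.061).

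Among cytokine receptors and their feedback genes 13 of 16 had negative differences (median -0.21). That median lay at -0.32 without sedentary replicate 1 and at -0.12 without exercise replicate 1 or sedentary replicate 2. Bcl2, the survival protein downstream of interleukin-7, reached 270 and 384 CPM in exercise and 510 and 654 CPM in sedentary members, without overlap (log2 difference -0.89, edgeR adjusted p = 0.334). Il7r itself had a log2 difference of -0.60 (edgeR adjusted p = 0.850). Of 12 mitochondrially encoded genes 11 had negative differences, with a median of -0.25 (-0.15 without sedentary replicate 1). T cell identity genes, which include Cd3d, Cd3e and Cd3g of the rule, had 8 positive and 13 negative differences among 21 (median -0.05). With the mixed barcodes left out, they had 5 positive and 17 negative differences (median -0.10), and without exercise replicate 1 the median was -0.16. Cytotoxic and effector memory genes had 11 positive and 11 negative differences among 22, their median ran from -0.15 without exercise replicate 2 to 0.24 without sedentary replicate 2, and Ccl5 (log2 difference -0.20) and Nkg7 (0.01) overlapped between the groups.

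On the higher side no gene passed. Interferon-stimulated genes had 12 positive differences among 16 tested (median 0.11), MHC class I genes 9 among 13 (median 0.02) and heat shock genes 6 among 8 (median 0.16). Without sedentary replicate 1 only 2 of 8 heat shock genes were positive (median -0.21), and without sedentary replicate 2 the median was 0.65. Without exercise replicate 1 the interferon list had 8 positive and 10 negative differences (median -0.10) and the MHC class I list 7 of each (median -0.015). Ly6a, the interferon-responsive antigen Sca-1, reached 270 and 203 CPM in exercise and 133 and 112 CPM in sedentary members (log2 difference 0.88, edgeR adjusted p = 0.370). Dnajb1, an inducible chaperone, reached 163 and 164 CPM against 45.2 and 115 CPM (log2 difference 1.02, edgeR adjusted p = 0.716). Lgals1 reached 585 and 537 CPM against 377 and 331 CPM (log2 difference 0.59, edgeR adjusted p = 0.716). Dnase1l3, an endothelial and macrophage nuclease, reached 56.2 and 90.4 CPM against 6.03 and 15.4 CPM, but 9 of 10 and 15 of 16 of its UMIs in the exercise libraries lay in 1 cell each. No circadian clock gene had enough counts to be tested.

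**Figure D5:**
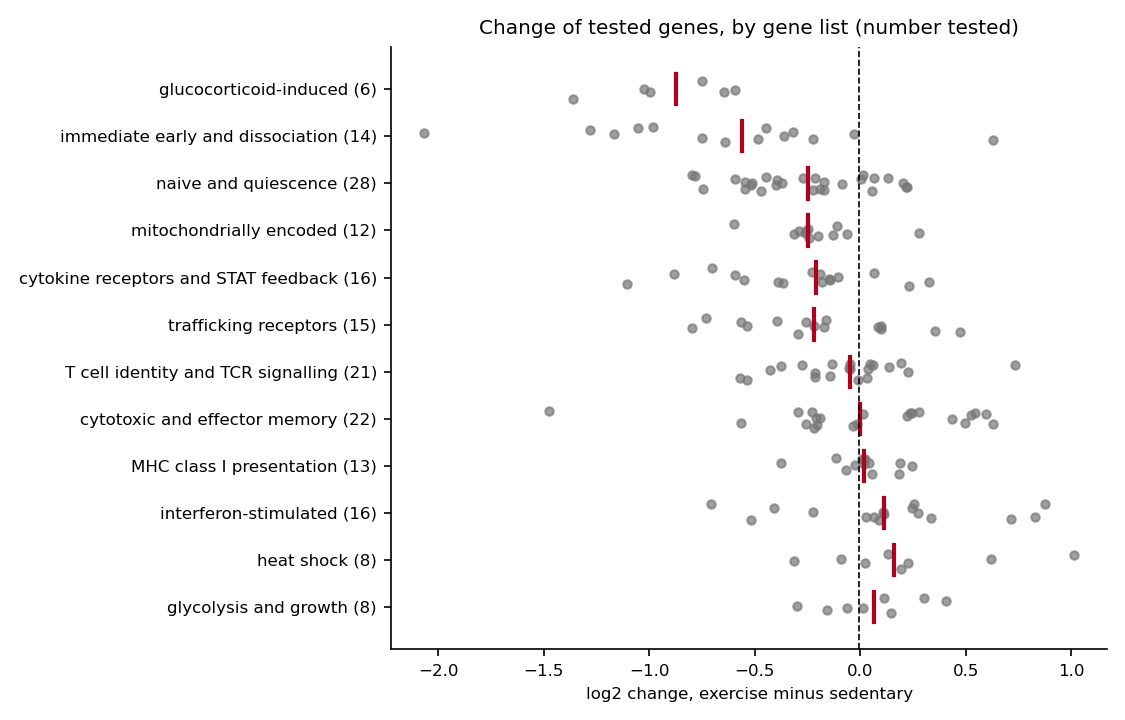
Log2 differences, exercise minus sedentary, of the tested genes of each list in the naive-like and CD8 T cells, with the median of each list as a red bar. All 6 glucocorticoid-induced genes lie below 0, and the cytotoxic and effector memory genes lie 11 above and 11 below it.

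Markers of other cell types differed between the libraries as well, and not all lists separated the groups. Kupffer and macrophage markers summed to 1726 and 875 CPM in exercise and 667 and 1193 CPM in sedentary members, so the groups overlapped. That list holds the genes by which the rule left cells out at 2 or more, so its level in members is not independent of that choice. Endothelial markers summed to 264 and 333 against 69.4 and 76.9 CPM, from 47 and 59 against 23 and 20 UMIs. In the exercise libraries 9 and 15 of these were Dnase1l3 UMIs of 1 cell each. That cell of exercise replicate 1 was not among the mixed barcodes. Plasmacytoid and conventional dendritic cell markers summed to 3794 and 570 against 4702 and 4270 CPM, with Siglech at 0 by the rule. Neutrophil markers summed to 33.7 and 67.8 against 293 and 127 CPM, with Ngp and Camp at 0 in all libraries. S100a8 had 0, 1, 55 and 13 UMIs, 42 of the 55 in 1 cell. Hepatocyte markers summed to 22.5 and 5.65 against 265 and 38.5 CPM. With the 13 mixed barcodes left out, the median of the glucocorticoid-induced list was -1.03 over 5 genes, that of the immediate early list -0.52 over 13 and that of the naive and quiescence list -0.29 over 28, so the 3 medians kept their sign. Any further part of these transcripts in the exercise values was not tested.

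The comparison was repeated in the 168 CD8-detected members, with 29 and 23 exercise and 66 and 50 sedentary cells. Of 1349 genes tested edgeR called 0 (0.0%), 59 had an unadjusted p under 0.05, the smallest adjusted p was 0.203, and DESeq2 called 0. Leaving out 1 library gave 9 calls without exercise replicate 1, 5 without exercise replicate 2, 2 without sedentary replicate 1 and 7 without sedentary replicate 2. Gm8369 reached 211 and 154 CPM in exercise and 472 and 370 CPM in sedentary cells (log2 difference -1.24, SE 0.28, edgeR adjusted p = 0.387). Txnip reached 182 and 208 CPM against 325 and 496 CPM (log2 difference -1.09, edgeR adjusted p = 0.387). Neither gene's values overlapped between groups, where 15.2% of all genes tested were lower in both exercise libraries.

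Gzma, granzyme A, had 0 UMIs in both exercise libraries of the CD8-detected members and 37 and 14 UMIs (188 and 92.5 CPM) in the sedentary ones (edgeR adjusted p = 0.203, and 0.00353 without the mixed barcodes). The exercise sums allow a level of up to 15.3 CPM at a count of 0. Over all members it did not separate the groups, at 5.62 and 152 CPM in exercise and 115 and 53.9 CPM in sedentary libraries, and 26 of the 27 UMIs of exercise replicate 2 lay in 1 cell. The sedentary UMIs came from few cells too, 38 from 5 members (17 from 1 of them) in replicate 1 and 14 from 4 members (8 from 1 of them) in replicate 2. Sepp1, the selenoprotein P gene of hepatocytes and macrophages, reached 383 and 307 CPM in exercise and 172 and 145 CPM in sedentary CD8-detected cells (log2 difference 1.07, edgeR adjusted p = 0.387). Kupffer and macrophage markers had positive differences in 4 of 5 tested genes there, with a median of 1.59, and the 5 include Cd5l, one of the genes by which the rule left cells out. In all members of exercise replicate 1, the top barcode held 74 of 100 Lyz2 UMIs. The top barcode of C1qb held 35 of 54 and that of C1qc 27 of 48. Both mixed barcodes of that library were CD8-detected. In the same gene order, the top barcodes held 2 of 27, 3 of 25 and 3 of 26 in exercise replicate 2. In sedentary replicate 2 they held 27 of 63, 25 of 55 and 14 of 36.

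The exercise difference of members was set against that of Cxcr6-positive T cells from the same libraries. Of 6173 genes tested edgeR called 0 (0.0%), 278 had an unadjusted p under 0.05, and DESeq2 called 0. Leaving out 1 library gave 10 calls without exercise replicate 1, 4 without exercise replicate 2, 1 without sedentary replicate 1 and 5 without sedentary replicate 2. Dusp2, a phosphatase of activated lymphocytes, reached 180 and 198 CPM in exercise and 124 and 385 CPM in sedentary members. In Cxcr6-positive cells it reached 191 and 438 CPM in exercise and 592 and 1257 CPM in sedentary libraries. The members overlapped between groups and the Cxcr6-positive cells did not, and the difference of differences was 1.21 (log2, SE 0.27), with an edgeR adjusted p of 0.0717. It passed with RLE factors, without the low-count filter, with at least 1000 UMIs and 500 genes, without doublets, with at least 2 Cd3 genes, without hepatocyte or hemoglobin UMIs and without exercise replicate 2, at edgeR adjusted p from 0.000728 to 0.0290. It did not pass in DESeq2, without the library block or without the mixed barcodes (1.09, edgeR adjusted p = 0.321). Nor did it pass without exercise replicate 1 (0.78), sedentary replicate 1 or sedentary replicate 2. Socs2, a cytokine signalling brake, had a difference of differences of 1.94 (edgeR adjusted p = 0.317), from 45.0 and 67.8 against 15.1 and 19.2 CPM in members.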

How the data were processed

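UMI counts per gene and barcode were used as deposited by the authors: 10x 3′ v3 libraries, Cell Ranger (version not given in the sources used here), Seurat 3.1 and the mm10/GRCm38 build, per the submitters' processing notes, with a pre-mRNA reference per the labels. Barcodes with 500 or more UMIs, 200 or more genes and no more than 20% mitochondrial UMIs were kept. Doublets were scored against simulated doublets and removed only as an alternative. UMIs were summed per library and tested with edgeR 4.0.16 (TMM, filterByExpr, quasi-likelihood, Benjamini-Hochberg at 0.05) in R 4.3.3, with DESeq2 1.42.0 as an alternative. DESeq2 was run without filterByExpr, so its calls and adjusted p-values come from a larger set of genes than those of edgeR. The scripts were tested on simulated data. Shares used exact permutation tests. Kupffer-like cells had 3 or more Kupffer genes and no Cd3, and B cells 2 or more of Cd79a, Cd79b and Ms4a1. Log2 differences are from the fits. Gene positions are from GENCODE on GRCm38.

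The members and gene lists were chosen with earlier results of these data known. Named genes were up to 12 called genes per direction, filled to 5 by p, up to 4 per list by p, and a fixed set of markers, some of which are not reported here. The exercise comparison in CD4-detected members was not run, because every library needed 20 cells and had 9, 5, 11 and 6. Total depth per library was 10050976 and 14849778 UMIs in exercise and 10662091 and 11826183 in sedentary libraries. The alternatives were another scaling, no filter, stricter cells, doublets, T cell gate or foreign transcripts, a replicate block and each library left out.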

Additional observations from a re-analysis of the deposited data

How the results depend on the processing

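With 2 libraries per group and 52 to 118 members each, counts of calls moved with most settings. For exercise in all members (1 call), edgeR gave 20 without the low-count filter, 4 without the mixed barcodes (chosen after seeing the data) and 9 to 23 with 1 library left out, and 0 calls came from DESeq2 or with at least 2 Cd3 genes. In CD8-detected members (0 calls), there were 16 without the filter, 1 without mixed barcodes and 2 to 9 with 1 library left out. The replicate block gave 19 and 16 calls in these comparisons. Deviations of same-numbered libraries from their group means correlated at 0.108 in all members and 0.132 in CD8-detected members. With 2 libraries per group, both replicates give the same value by construction, so it cannot establish a pairing. For the difference from Cxcr6-positive T cells (0 calls), there were 2 with RLE factors, 4 without the filter, 4 with at least 1000 UMIs and 500 genes, 3 without doublets, 7 with at least 2 Cd3 genes, 5 without hepatocyte or hemoglobin UMIs and 1 to 10 with 1 library left out. For CD8 against CD4 (0 calls), there were 1 with DESeq2, 100 without the filter, 2 with at least 2 Cd3 genes, 3 without hepatocyte or hemoglobin UMIs, 8 without mixed barcodes and 0 to 3 with 1 library left out. Without the library block both of these stayed at 0. With 1 library left out, the lone library of its group is assumed to vary like the other group. The cause of these shifts was not tested.

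Over 51 gene results recomputed, 538 alternative values kept their direction and side of the threshold, 92 newly passed it, 2 no longer did and 11 changed sign. With 1 library left out the exercise difference ran from -0.55 to 0.061 for Tcf7, -3.95 to 0.79 for Gzma, -1.08 to 0.51 for Dusp2, -0.47 to 0.083 for Ccl5 and -0.24 to 0.27 for Nkg7. Gzma was 0.54 with at least 2 Cd3 genes. Nkg7 was -0.0069 without the filter, -0.013 without hepatocyte or hemoglobin UMIs and -0.060 without mixed barcodes. The share differences kept their sign in all alternatives, from -1.43 to -0.633 points among kept cells.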
